A study of Homo sapiens with 8 samples.

Results

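MBD-TET1-CDmut is a fusion protein that can be carried to methylated DNA but cannot oxidize it. It joins 3xFLAG, the methyl-CpG-binding domain (MBD) of MBD2, and the catalytic domain of TET1 with an aspartate-to-alanine change that inactivates the enzyme. The data described here are the arrays of the 4 stable HEK293T cell lines that carry either this fusion or no fusion, out of 8 cell lines in all. MBD-TET1-CDmut was represented by clones #9 and #10 and empty vector by clones #1 and #2, chosen by their sample titles. HEK293T is a transformed line of human embryonic kidney origin. The other 4 arrays, used here only for comparison, were from TET1-CDwt (the active catalytic domain alone, #2 and #5) and MBD-TET1-CDwt (the active fusion, #3 and #10). All of the lines were grown untreated in the same serum-containing medium after plasmid transfection, blasticidin S selection, and picking of single colonies, so each line is 1 clone, and no parental culture was analysed here.

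MBD2 binds symmetrically methylated CpG and, as part of the NuRD complex with its histone deacetylases and nucleosome-remodeling ATPases, keeps methylated promoters silent. TET1 oxidizes 5-methylcytosine to 5-hydroxymethylcytosine, and its catalytic domain needs a bound iron ion, which the aspartate helps to hold. The comparison of MBD-TET1-CDmut with empty vector therefore asks what is seen on the arrays when the MBD and an inactive TET1 domain are expressed without the oxidation step.

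One Cy3-labeled cRNA was hybridized to each array. Values are given as log2 of the processed spot intensity after subtraction of the 75th percentile of the array, so that 0 is the level of a fairly bright probe and signals counted as well above background began at -6.01 to -5.51, depending on the array. Of the probes, 63.2% to 68.2% were well above background on an array. Pairs of values are given in the order of clones #9 and #10 for MBD-TET1-CDmut, #1 and #2 for empty vector, #2 and #5 for TET1-CDwt, and #3 and #10 for MBD-TET1-CDwt. The MBD-TET1-CDmut clones were the closest pair on the arrays, with an SD of 0.25 for 1 clone over 22530 probes, compared with 0.35 for empty vector. The precision of every value below is limited by the 2 arrays of a group. The 7 HEK293T markers PAX2, LHX1, NEFM, NEFL, INA, VIM, and CKB were well above background on all 4 arrays. Their summed level (on a linear scale on which the 75th percentile is 1) was 168 to 184 in empty vector and 198 to 235 in MBD-TET1-CDmut. Most of this sum is VIM, the brightest of them, at 7.59 and 7.27 against 7.13 and 6.99 in empty vector. The others differed by -0.05 (CKB), 0.07 (NEFM), 0.09 (LHX1), 0.16 (INA), 0.17 (NEFL), and 0.57 (PAX2). Of 6 fibroblast markers, COL1A1 was well above background on all 4 arrays and 5 were on none. Of 4 blood markers, PTPRC and CD14 were on all 4 and CD3E and HBB on none, and of 4 endothelial markers CDH5 was on all 4 and PECAM1, VWF, and KDR on none. Of 4 epithelial markers, EPCAM and CDH1 were on all 4 and KRT5 and KRT14 on none, and the 3 mesenchymal or muscle markers ACTA2, DES, and MYOG were on all 4. The summed level was at most 0.359 in the first 4 of these lists and 0.764 to 0.907 in the last, and its part in the results was not tested.

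The transgene itself was examined first. TET1 gave 2.85 and 2.61 in MBD-TET1-CDmut and 2.62 and 2.94 in empty vector, and MBD2 gave 1.35 and 1.30, and 1.36 and 1.25. The groups overlapped for TET1, and MBD2 differed by 0.02. In a two-sided exact permutation test of the MBD-TET1-CDmut arrays against the other 6, p was 0.786 for TET1 and for MBD2. The other probe of TET1 differed by 0.44. Since probe positions were not used here, a probe outside of the cloned part checks nothing, and the arrays give no check of the labels. The reference genes ACTB (7.15 and 6.99 against 7.14 and 7.04) and B2M (3.02 and 3.09 against 3.07 and 2.96) overlapped between the groups. The 4 hypermethylated genes of the RT-PCR panel measured here (SOX17, MAL, MT1M, and TRH) did not exceed background on an array of either group, so no fold is given. SOX17, a transcription factor of endoderm, was at -7.72 and -7.70 in MBD-TET1-CDmut and at -7.96 and -8.18 in empty vector, compared with -0.47 and 1.13 in MBD-TET1-CDwt. For the 8 genes tested in this way, p lay between 0.214 and 0.786 and was 0.786 for each after Benjamini-Hochberg adjustment, where 0.0357 is the smallest p that 28 splits allow.

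Empty vector was hybridized on slide 1 and MBD-TET1-CDmut on slide 2, and each slide was scanned as 1 set, so that slide and construct cannot be told apart in their comparison. A shift was seen in dim probes. Over the 9137 probes with no array of the 8 well above background, the median difference between MBD-TET1-CDmut and empty vector was 0.35, and that between MBD-TET1-CDmut and MBD-TET1-CDwt, which share slide 2, was -0.03. Over the 24934 other probes the median difference from empty vector was -0.03. By signal, the median difference was 0.35 in the lowest bin (8492 probes), -0.17 in the next bin (-7 to -6), and between -0.13 and 0.01 in the 10 bins above -6. The shift of dim probes thus moved with both the slide and the MBD fusions, and its part in the results was not tested. Genes were read only where at least 1 group was well above background.

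**Figure D1:**
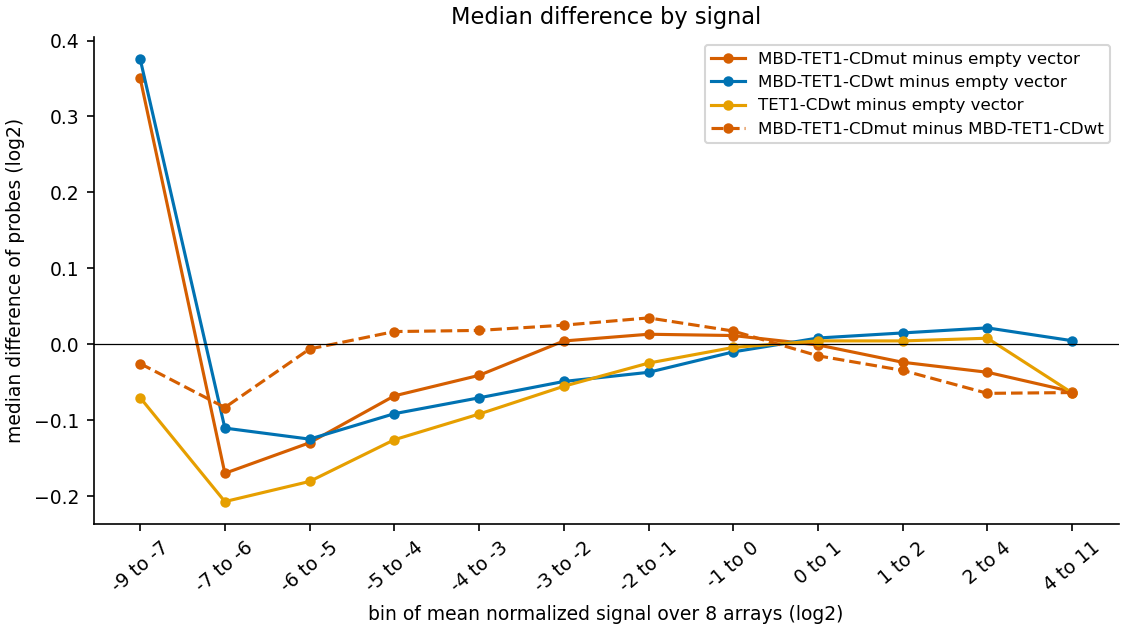
Median log2 difference of probes (y axis) by bin of mean normalized signal over 8 arrays (x axis). Both MBD fusions, hybridized on slide 2, lie near 0.35 above empty vector in the lowest bin (0.35 for MBD-TET1-CDmut, 0.38 for MBD-TET1-CDwt), TET1-CDwt on slide 1 lies at -0.07 there, and the dashed line between both MBD fusions stays between -0.08 and 0.03 in all bins.

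Few genes differed between MBD-TET1-CDmut and empty vector by size. At least 5-fold higher were 8 genes, 0.0467% of the 17129 genes for which both MBD-TET1-CDmut arrays exceeded background, and at least 5-fold lower were MYO7A and HES5, 0.0112% of 17810 genes. The higher genes were NKX6-2, MAL2, FLJ36000, KRTAP21-2, the transcript XM_003118893, IRF7, MMP23B, and HSPA6. At least 2-fold higher were 78 genes (0.455%) and at least 2-fold lower were 90 (0.505%). The requirement that each MBD-TET1-CDmut clone be 2-fold past each empty vector clone left 24 genes higher (0.14%) and 15 lower (0.0842%), and at 5-fold it left 2 higher (0.0117%) and 0 lower. HSPA6, at 5.40-fold, was the last gene inside of the 5-fold threshold and the transcript ENST00000464366, at 4.77-fold, the first outside. On the other side of the scale HES5 was inside at 5.98-fold and CDH18, a type II cadherin, outside at 4.12-fold.

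limma, fitted to all 8 arrays with 4 group means, called 0 of 22530 probes in either direction at a Benjamini-Hochberg adjusted p under 0.05. At an unadjusted p under 0.05, 194 probes were higher (0.861%) and 409 lower (1.82%). Even together, these shares stay below 0.05 of the probes, the share that this threshold would pass on average if nothing differed. An unadjusted p under 0.05 is therefore no evidence for a single gene here. Below both empty vector arrays on both MBD-TET1-CDmut arrays were 4344 probes (19.3%), and above them 3485 (15.5%). The balance of lower over higher probes depended in part on scaling. Under median scaling 247 were higher and 297 lower, under quantile normalization 267 and 332, and after normexp background correction 139 and 187. Cyclic loess left it much as it was, at 217 and 417. With no filter on dim probes it was reversed, with 1837 higher and 692 lower. The balance also changed when a single clone was left out, further toward lower probes without empty vector #1 and toward an even balance without either MBD-TET1-CDmut clone. The smallest adjusted p was 0.156, for ST8SIA1, and the second smallest was 1.00. None of the differences by size given below therefore passed limma after adjustment, and their unadjusted p is given with the standard error. Both rest on the spread within all 4 groups, so a split between clones of TET1-CDwt or MBD-TET1-CDwt widens them. They do not measure the spread of the MBD-TET1-CDmut and empty vector clones alone. The SD of 1 clone was 0.25 in MBD-TET1-CDmut, 0.35 in empty vector, 0.38 in TET1-CDwt, and 0.50 in MBD-TET1-CDwt. Single clones gave more genes, of which few were shared. Against the mean of empty vector, 292 genes passed 2-fold upward in clone #9 alone and 191 in clone #10 alone, with 42 in common (14.4% and 22.0%). For 2-fold lower genes these counts were 167 and 114 with 48 shared (28.7% and 42.1%).

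**Figure D2:**
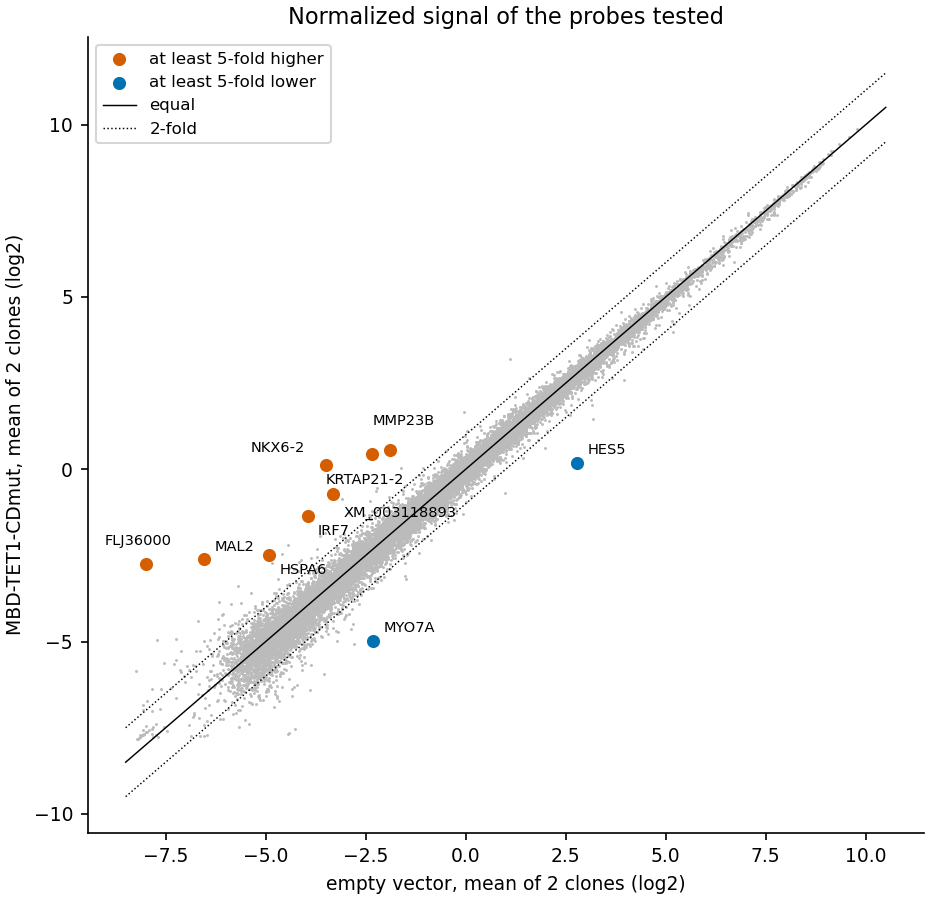
Mean normalized log2 signal of 2 clones of MBD-TET1-CDmut (y axis) against that of empty vector (x axis) for the 22530 probes tested, 1 point each. Solid and dotted lines mark equal signals and 2-fold differences, and colored points are the named 8 higher and 2 lower genes past the 5-fold threshold. Gray points that lie as far out missed that count, in which dim signals are first raised to the lowest signal above background and both arrays of the brighter group must exceed background.

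NKX6-2, a homeobox repressor of neural and oligodendrocyte development, had the highest fold among genes well above background on all 4 arrays. It gave 0.28 and -0.03 in MBD-TET1-CDmut and -3.18 and -3.83 in empty vector, 12.4-fold higher, with a log2 difference of 3.63 (limma standard error 1.53, unadjusted p = 0.0499). Both MBD-TET1-CDmut clones lay above both empty vector clones, but the other constructs were divided, with -1.76 and -4.22 in TET1-CDwt and -2.78 and 2.27 in MBD-TET1-CDwt. IRF7, the regulator of type I interferon genes, had a like spread. Its values were -1.19 and -1.54 in MBD-TET1-CDmut against -4.28 and -3.63 in empty vector (6.02-fold, log2 difference 2.59, standard error 1.27, unadjusted p = 0.0818), and it was higher still in MBD-TET1-CDwt, at -0.75 and 1.89. MMP23B, a membrane-anchored matrix metalloproteinase, gave -0.17 and 1.30 against -1.12 and -2.69 (5.54-fold, unadjusted p = 0.109). Of these 3 genes, none had both MBD-TET1-CDmut clones above all other 6 arrays.

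FLJ36000, a long non-coding RNA of chromosome 17, was well above background on both MBD-TET1-CDmut arrays and on neither of empty vector. It gave -2.71 and -2.78 against -7.87 and -8.10, at least 9.02-fold higher, with a measured log2 difference of 5.25 (limma standard error 0.86, unadjusted p = 0.000529). Among the genes at least 5-fold higher it was the only one in which both MBD-TET1-CDmut clones lay above all other 6 arrays. The nearest of these was MBD-TET1-CDwt #10 at -2.93, while #3 gave -6.02 and TET1-CDwt -7.41 and -8.01. FLJ36000 has 3 probes, and the smallest difference among them was 0.04. MAL2, a proteolipid of apical transport, was at least 9.83-fold higher. Its clones were far apart, with -0.91 in #9 and -4.32 in #10 against -6.65 and -6.41 in empty vector (unadjusted p = 0.0209), and TET1-CDwt #2 reached -2.48.

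HSPA6, an inducible heat shock protein of the HSP70 family, gave -2.28 and -2.70 against -5.62 and -4.23. The log2 difference was 2.43 (5.40-fold, 1 of 2 empty vector arrays well above background, unadjusted p = 0.0897), and the highest of the 8 arrays was TET1-CDwt #5 at 0.31. SEMA3C, a secreted semaphorin, gave -1.91 and -3.0 against -4.51 and -4.67 (4.37-fold, standard error 0.46, unadjusted p = 0.0024). It was also above empty vector on the MBD-TET1-CDwt arrays, at -2.84 and -3.61. CDH11, a mesenchymal cadherin, gave -3.24 and -3.97 against -5.20 and -5.54 (3.41-fold, unadjusted p = 0.0616), whereas MBD-TET1-CDwt was below empty vector at -7.82 and -6.15. FANCF, a subunit of the Fanconi anemia core complex, was higher on both of its probes. The brighter one gave -2.17 and -1.68 against -3.97 and -3.29 (3.25-fold, unadjusted p = 0.0129). On the dimmer one, which gave -3.99 and -3.70 against -6.62 and -5.69, the log2 difference was 2.31 (standard error 0.43, unadjusted p = 0.00115), one of the 4 smallest unadjusted p among higher probes. All of the other 4 arrays were above both empty vector arrays on this dimmer probe, at -4.10 and -4.51 in TET1-CDwt and -4.44 and -3.36 in MBD-TET1-CDwt.

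**Figure D3:**
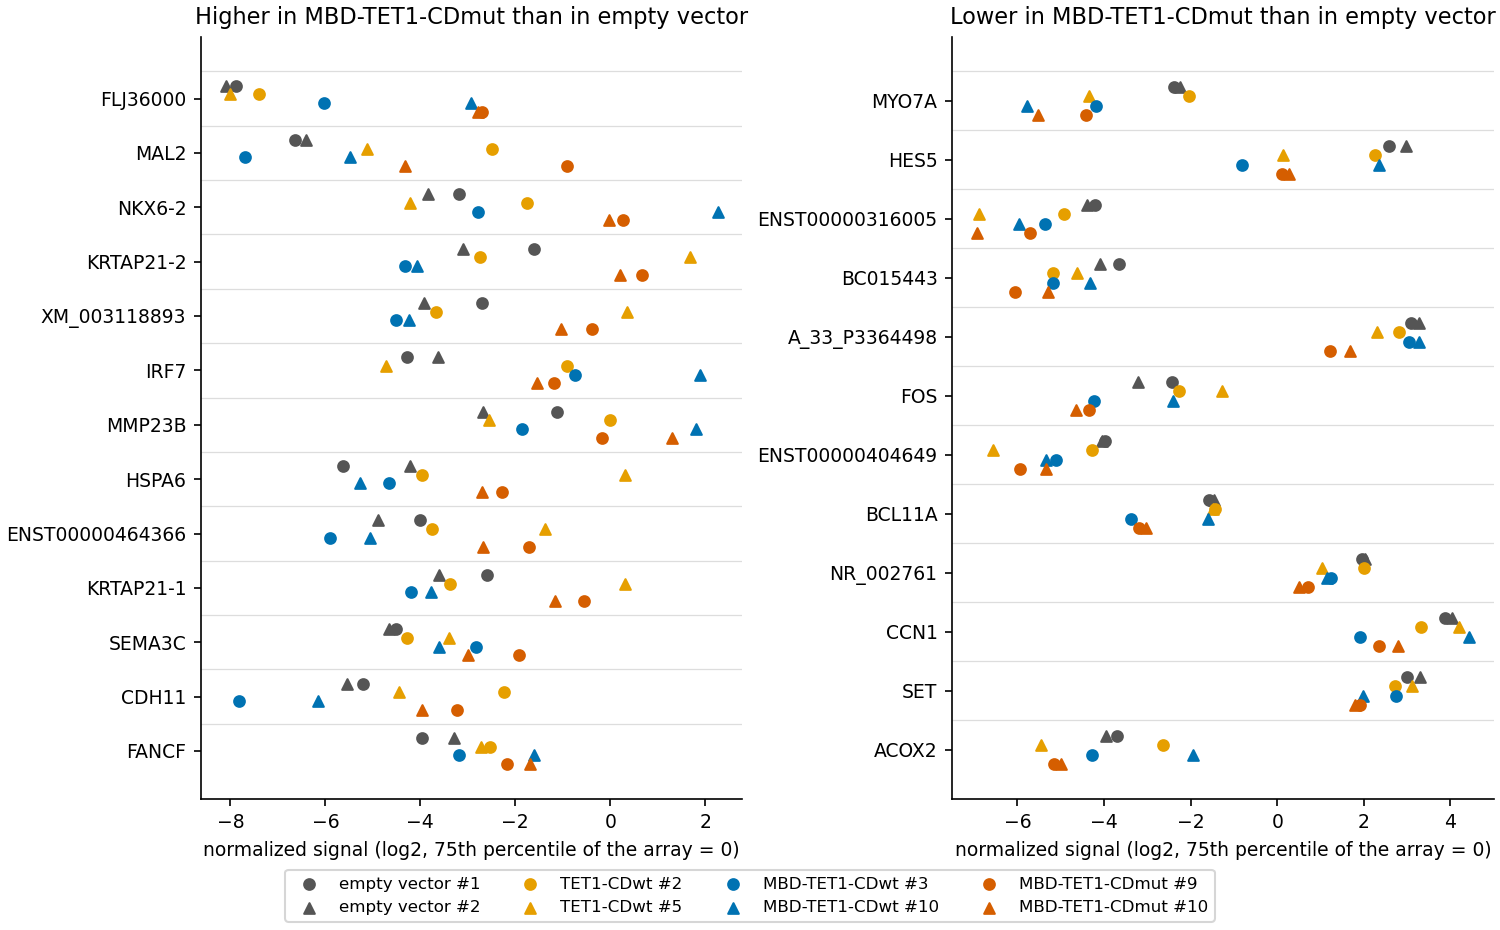
Normalized log2 signal (x axis) of the genes at least 5-fold different by size and of those in which each MBD-TET1-CDmut clone was at least 2-fold past each empty vector clone (up to 12 a direction), 1 point for each of 8 arrays. MBD-TET1-CDmut (red) lies to the right of empty vector (gray) on the left and to the left of it on the right, while TET1-CDwt (yellow) and MBD-TET1-CDwt (blue) are spread over both.

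Genes of keratin-associated proteins were among those with the largest differences. Keratin-associated proteins (KRTAP) cross-link the keratin filaments of the hair shaft and are made from small, intronless genes that lie in clusters. Of 103 keratin and KRTAP genes on the array, 4 were at least 2-fold higher (0.455% over all genes) and 0 lower (0.505%), and all 4 are on chromosome 21. KRTAP21-2 gave 0.66 and 0.20 in MBD-TET1-CDmut and -1.60 and -3.10 in empty vector (6.86-fold, standard error 1.28, unadjusted p = 0.0662). KRTAP21-1 gave -0.56 and -1.16 against -2.59 and -3.61, a 4.71-fold difference. KRTAP19-1 gave 3.86 and 2.54 against 1.66 and 0.54 (4.30-fold), and KRTAP20-2 gave 2.30 and 1.00 against 0.41 and -0.52 (3.25-fold). The unadjusted p was 0.0727 for KRTAP21-1, 0.119 for KRTAP19-1, and 0.137 for KRTAP20-2.

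Both MBD-TET1-CDmut clones lay above both empty vector clones for all 4 genes. The same genes were high in 1 further array and low in others. TET1-CDwt #5 was the highest of the 8 arrays in all 4, at 1.68 for KRTAP21-2 and 4.59 for KRTAP19-1, although TET1-CDwt #2 was at -2.75 and 0.59. MBD-TET1-CDwt was below the other 6 arrays in all 4, at -4.32 and -4.06 for KRTAP21-2 and at -0.19 and -0.07 for KRTAP19-1. Within slide 2 the difference between MBD-TET1-CDmut and MBD-TET1-CDwt was 4.62 for KRTAP21-2 (unadjusted p = 0.00864), 3.33 for KRTAP19-1, 3.13 for KRTAP21-1, and 2.54 for KRTAP20-2, which limma did not call after adjustment. Some neighbours differed less, but KRTAP20-2, KRTAP21-2, and KRTAP21-1 themselves follow each other among the genes plotted. KRTAP19-2, next to KRTAP19-1 among the genes plotted, differed by 0.13, and KRTAP20-1, next to KRTAP20-2, by -0.28. KRTAP6-1, on the far side of KRTAP20-1, differed by 0.75. It was also highest in TET1-CDwt #5, at -1.66, and lowest in MBD-TET1-CDwt, at -3.68 and -3.92. Over the 19 other KRTAP genes of chromosome 21 with a mean of at least -5 on the 8 arrays, differences ran from -0.72 in KRTAP10-5 to 0.75 in KRTAP6-1. Members of this family have similar sequences, so a probe may bind transcripts of more than 1 of them. The transcripts XM_003118893 (-0.38 and -1.04 against -2.70 and -3.92) and ENST00000464366 (-1.71 and -2.69 against -4.01 and -4.90) were not paired with a gene here and were likewise highest in TET1-CDwt #5.

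**Figure D4:**
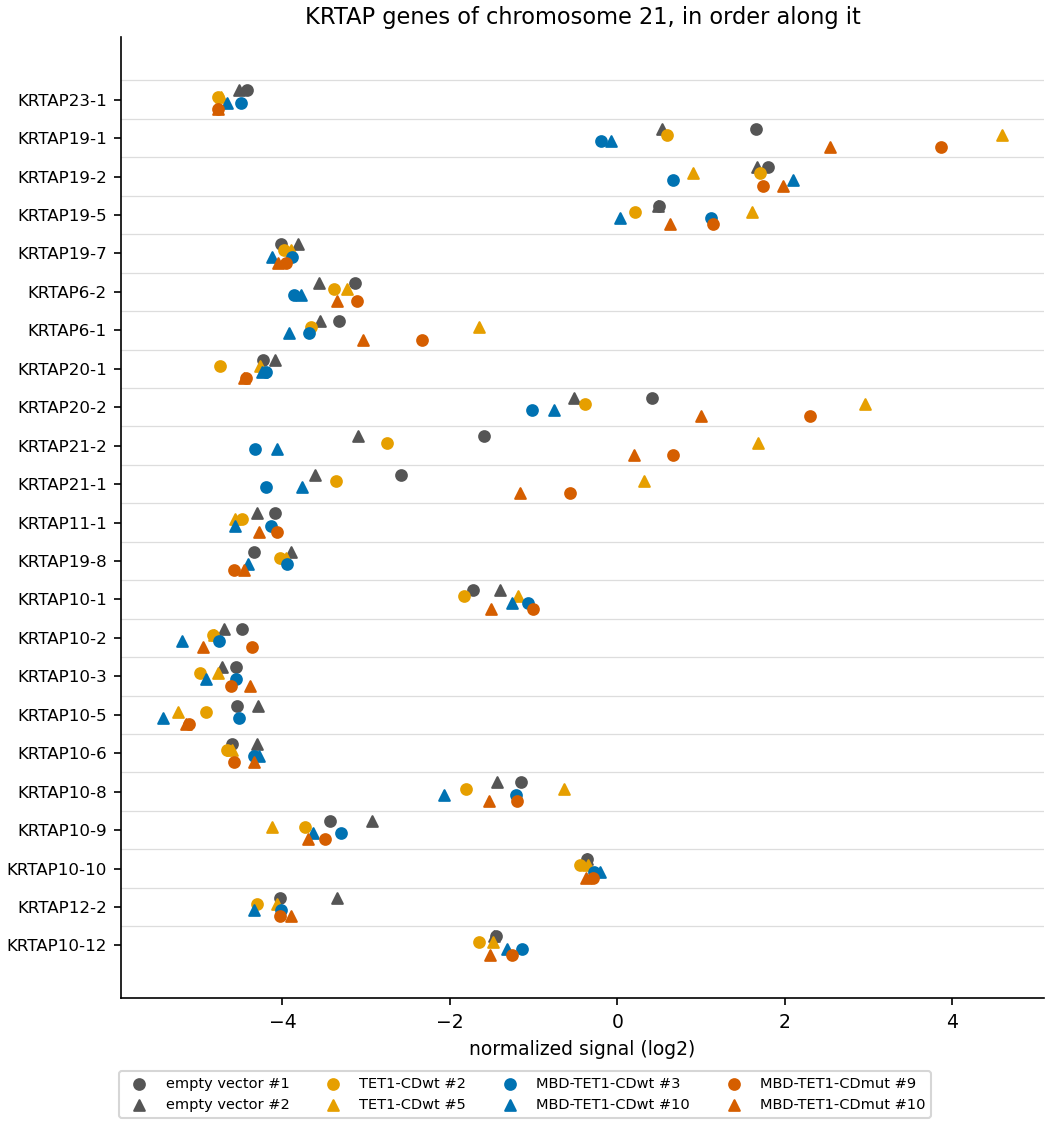
Normalized log2 signal (x axis) of the 23 KRTAP genes of chromosome 21 with a mean of at least -5, in their order along the chromosome, 1 point for each array. In KRTAP19-1, KRTAP20-2, KRTAP21-2, and KRTAP21-1 the points spread from MBD-TET1-CDwt (blue) at the low end to MBD-TET1-CDmut (red) and TET1-CDwt #5 (yellow triangle) at the high end, and most other genes hold all 8 arrays close together.

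The MBD recognizes methylated CpG, and promoters of KRTAP genes that were higher together are therefore shown with each CG in capitals. That of KRTAP21-1 is missing, as it was not among the promoters available here. Next to them are those of FANCF and HES5, which differed in opposite directions. The sequences are from RefSeq on GRCh38.p14 and run from 250 bases before to 50 bases after the transcription start, 5′ to 3′ on the strand of the gene. In the RefSeq table, 96.0% of 35116 promoters hold at least 1 CG, with a median of 14. KRTAP21-2 (chr21:30747210-30747509, minus strand) and KRTAP20-2 (chr21:30634956-30635255, plus strand) hold 0, as do 3.96% of all promoters, and KRTAP19-1 (chr21:30480318-30480617, minus strand) holds 1. FANCF (chr11:22625774-22626073, minus strand) holds 18 and HES5 (chr1:2530214-2530513, minus strand) holds 45, a number reached by 3.48% of all promoters.
KRTAP21-2: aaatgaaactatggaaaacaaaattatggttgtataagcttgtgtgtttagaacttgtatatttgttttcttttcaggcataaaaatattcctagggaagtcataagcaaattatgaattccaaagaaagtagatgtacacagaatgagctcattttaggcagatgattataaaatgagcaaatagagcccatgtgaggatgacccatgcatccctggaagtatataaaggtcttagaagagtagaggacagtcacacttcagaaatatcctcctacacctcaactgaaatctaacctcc
KRTAP20-2: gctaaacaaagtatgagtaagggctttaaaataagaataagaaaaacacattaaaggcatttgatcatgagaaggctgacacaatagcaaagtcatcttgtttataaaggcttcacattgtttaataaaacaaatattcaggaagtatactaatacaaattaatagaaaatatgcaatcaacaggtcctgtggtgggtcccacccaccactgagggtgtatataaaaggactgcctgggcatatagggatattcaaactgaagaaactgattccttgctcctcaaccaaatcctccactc
KRTAP19-1: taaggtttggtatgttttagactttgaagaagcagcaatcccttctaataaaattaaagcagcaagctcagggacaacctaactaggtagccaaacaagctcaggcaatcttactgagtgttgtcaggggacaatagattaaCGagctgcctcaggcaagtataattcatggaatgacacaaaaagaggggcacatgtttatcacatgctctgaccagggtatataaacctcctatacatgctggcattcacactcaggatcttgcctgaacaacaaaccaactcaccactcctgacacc
FANCF: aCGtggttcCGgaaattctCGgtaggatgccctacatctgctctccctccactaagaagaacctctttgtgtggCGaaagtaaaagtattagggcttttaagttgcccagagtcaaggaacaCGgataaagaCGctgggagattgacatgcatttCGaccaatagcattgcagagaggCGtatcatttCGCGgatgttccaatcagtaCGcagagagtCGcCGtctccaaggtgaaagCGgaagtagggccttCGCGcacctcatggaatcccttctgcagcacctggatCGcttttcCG
HES5: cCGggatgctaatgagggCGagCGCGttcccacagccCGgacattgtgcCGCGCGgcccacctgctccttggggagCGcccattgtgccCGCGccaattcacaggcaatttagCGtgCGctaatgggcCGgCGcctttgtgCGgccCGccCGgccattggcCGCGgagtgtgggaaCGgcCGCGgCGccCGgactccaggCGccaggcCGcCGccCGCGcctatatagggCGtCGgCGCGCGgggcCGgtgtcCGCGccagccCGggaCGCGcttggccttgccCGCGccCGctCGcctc
Methylation was not measured on these arrays, and the count of CG says nothing of whether the fusion was there. Over the 69 KRTAP genes with a promoter in the table the median was 2, compared with 22 for 15153 genes on the array. For the 78 higher and 90 lower genes only 59.0% and 41.1% had a promoter in the table, so a comparison of their CpG content is void.

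MYO7A and HES5 were the genes at least 5-fold lower. MYO7A, an unconventional myosin of sensory hair cells, gave -4.42 and -5.53 in MBD-TET1-CDmut and -2.39 and -2.24 in empty vector (6.32-fold, log2 difference -2.66, standard error 0.83, unadjusted p = 0.0149). Its other probe differed by 0.11, so the difference rests on 1 of 2 probes. MBD-TET1-CDwt was equally low, at -4.19 and -5.78, and TET1-CDwt was divided at -2.03 and -4.34. HES5, a Notch target and repressor of neural differentiation, was a bright gene in empty vector at 2.58 and 2.97 and gave 0.12 and 0.27 in MBD-TET1-CDmut (5.98-fold lower, standard error 1.04, unadjusted p = 0.0429). Low values of HES5 were not restricted to this construct, with 0.14 in TET1-CDwt #5 and -0.82 in MBD-TET1-CDwt #3, whereas their sister clones gave 2.27 and 2.34.

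Of the immediate early genes of the serum response, FOS, CCN1, and EGR1 were at least 2-fold lower by size in MBD-TET1-CDmut. FOS, a subunit of the AP-1 factor, gave -4.35 and -4.65 against -2.42 and -3.21 (3.22-fold, standard error 0.62, unadjusted p = 0.0304), with both MBD-TET1-CDmut clones below all other 6 arrays. CCN1, a secreted matricellular protein, gave 2.36 and 2.79 against 3.87 and 4.03 (2.59-fold, unadjusted p = 0.109). EGR1, a zinc finger factor, gave -2.69 and -3.55 against -1.84 and -2.26 (2.09-fold), and both clones were again below the other 6 arrays. EGR2 gave -4.19 and -5.80 against -3.93 and -3.81. Of the 27 genes of this list on the array, these 3 were at least 2-fold lower (0.505% over all genes) and 0 higher (0.455%). Of its 23 members with a mean of at least -5, 16 were lower and 7 higher, with a median difference of -0.18. Over all 13716 such genes, of which 6630 were higher, the median was -0.01. The median was -0.48 to -0.21 over the 4 pairs of single clones, -0.05 after normexp background correction, and -0.16 against MBD-TET1-CDwt within slide 2. MBD-TET1-CDwt #3 was also low in FOS (-4.24) and CCN1 (1.90).

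Other genes in which each MBD-TET1-CDmut clone was at least 2-fold below each empty vector clone had signals from near background, in ACOX2, to well over 0. SET, a histone chaperone and inhibitor of protein phosphatase 2A, gave 1.92 and 1.80 against 3.0 and 3.30 (2.44-fold, standard error 0.29, unadjusted p = 0.00328), and its 3 probes had the same direction. MBD-TET1-CDwt #10 was close to them at 1.97. BCL11A, a zinc finger repressor of fetal globin genes, gave -3.19 and -3.03 against -1.57 and -1.47 (3.0-fold, unadjusted p = 0.0173), with MBD-TET1-CDwt at -3.39 and -1.59 and 1 of its 4 probes in the other direction, at 0.11. ACOX2, an enzyme of peroxisomal oxidation of branched chains, gave -5.15 and -4.99 against -3.70 and -3.96 (2.36-fold, unadjusted p = 0.258). The probe A_33_P3364498, which has no gene name here, gave 1.22 and 1.68 in MBD-TET1-CDmut and 2.30 to 3.28 on all other 6 arrays (log2 difference from empty vector -1.72, standard error 0.25, unadjusted p = 0.000274). The unnamed transcript NR_002761 was at 0.72 and 0.51 against 1.95 and 2.03, and 1.03 or higher on the other 4 arrays.

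ST8SIA1, the GD3 synthase of ganglioside synthesis, had the smallest p in limma. It gave -3.90 and -4.64 in empty vector and -7.53 and -7.55 in MBD-TET1-CDmut, not well above background there, at least 2.40-fold lower with a measured log2 difference of -3.27 (standard error 0.27, limma adjusted p = 0.156). It was as low in the other constructs, between -7.94 and -7.08, so the difference from MBD-TET1-CDwt within slide 2 was -0.27. On its other probe the difference from empty vector was -0.41. PCDHB8, a clustered protocadherin, had the same form, with -7.26 and -7.52 against -5.38 and -5.47 in empty vector and the other 4 arrays between -7.71 and -5.82. DRAM1, a lysosomal membrane protein of autophagy, and ELFN2, a leucine-rich repeat protein, had small p among higher probes. DRAM1 gave -4.40 and -4.61 against -5.93 and -5.73 (log2 difference 1.32, standard error 0.23, unadjusted p = 0.000804), and ELFN2 gave -3.77 and -3.94 against -5.01 and -5.17 (1.23, standard error 0.23, unadjusted p = 0.00106). In both genes the MBD-TET1-CDmut clones lay above all other 6 arrays.

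Differences of MBD-TET1-CDmut from all other constructs were tested with limma against the mean of the other 3 groups. It called 0 of 22530 probes in either direction. At an unadjusted p under 0.05, 360 were higher (1.6%) and 469 lower (2.08%), and the smallest adjusted p was 0.561. Both MBD-TET1-CDmut arrays were above all other 6 in 690 probes (3.06%) and below them in 867 (3.85%). SLC44A5, a choline transporter-like protein, gave -2.94 and -2.78 in MBD-TET1-CDmut, -3.73 and -3.33 in empty vector, and -5.21 and -4.96 in MBD-TET1-CDwt. KIF1A, a kinesin of axonal transport, gave 3.12 and 2.81 against 2.40 and 2.83 in empty vector, where the groups overlapped, and 0.99 and 1.10 in MBD-TET1-CDwt. WDR33, a subunit of the polyadenylation complex, gave -3.51 and -3.66 on 1 of 4 probes and -4.88 to -4.03 on the other 6 arrays, but 2 of the 4 probes ran the other way (to -0.61). Among lower probes the smallest p belonged to GPAT2, OOEP, GTSF1, and SOHLH2, genes of germ cells and oocytes. On these probes they were not well above background in either MBD-TET1-CDmut or empty vector but were so in MBD-TET1-CDwt, as GTSF1, which gave -7.29 and -7.62 against -2.52 and -2.69. A brighter probe of GPAT2 differed from empty vector by 0.03. OOEP was below all other 6 arrays in both MBD-TET1-CDmut clones, at -7.59 and -7.81 against -6.36 and -6.58 in empty vector.

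Among the 78 genes at least 2-fold higher than empty vector, 17 had both MBD-TET1-CDmut clones above all other 6 arrays, and among the 90 lower genes 30 had both below. Over all probes tested, which were not chosen by size, these shares were 3.06% and 3.85%. Slide 2 also holds MBD-TET1-CDwt, against which limma called 3 probes higher (0.0133%) and 20 lower (0.0888%) at an adjusted p under 0.05, and 802 (3.56%) and 739 (3.28%), respectively, at that threshold without adjustment. The 78 genes had a median difference of 1.27 from empty vector and 1.04 from MBD-TET1-CDwt within slide 2, where 40 were at least 2-fold higher and 16 were lower. The 90 lower genes had a median of -1.21 from empty vector and -0.83 from MBD-TET1-CDwt, where 32 were at least 2-fold lower and 11 were higher. These genes were chosen by the difference between the MBD-TET1-CDmut and empty vector arrays. The MBD-TET1-CDmut arrays also enter the values within slide 2 and the counts beyond all other 6 arrays. The choice alone moves these in the same direction, so they are no separate support. The empty vector arrays also enter the comparisons of the other constructs with empty vector. In those comparisons the median of the 78 genes was 0.70 in TET1-CDwt and 0.28 in MBD-TET1-CDwt, and that of the 90 genes -0.68 and -0.55. They were dim, with a median signal of -3.69 and -3.94. In 9 of the 78 genes neither empty vector array was well above background, and in 17 of the 90 neither MBD-TET1-CDmut array was.

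Germ cell genes, many of which are silenced by DNA methylation, were described as lists. Of 51 cancer-testis antigens on the array, which are germ cell genes of the X chromosome and autosomes that are methylated in somatic cells, 1 was at least 2-fold higher (0.455% over all genes) and 0 lower (0.505%). This was MAGEB2, which was at -0.27 in #10 but at -3.47 in #9, against -3.64 and -2.43 in empty vector (2.24-fold, unadjusted p = 0.297). For 26 of them none of the 4 arrays was well above background. Well above background on all 4 arrays were 16. The 20 with a mean of at least -5 over all 8 arrays, some of which reach it through MBD-TET1-CDwt, had a median difference of -0.04 from empty vector. With dim signals left as measured, their differences ran from -0.77 to 1.90. In limma, 1 of 23 tested antigens was higher at an unadjusted p under 0.05 and 0 were lower. CTAG1A gave -4.0 and -4.72 against -4.29 and -2.89 in empty vector, and 0.54 and -0.94 in MBD-TET1-CDwt. VCX2 gave -2.63 and -3.16 against -4.10 and -3.39 (unadjusted p = 0.0938), and 0.71 and -0.35 in MBD-TET1-CDwt. Of 31 germ line and piRNA genes, 0 were 2-fold different and 20 were dim on all 4 arrays. Over all 31 the median difference was 0.35, the size of the shift of dim probes, and over the 7 brighter ones it was 0.03. Among these PIWIL4, an Argonaute protein of the piRNA pathway, gave -4.61 and -4.15 against -4.26 and -5.89, which overlapped.

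Homeobox genes were higher more often than lower. Of 58 factors of the NK, LIM, and paired classes with a mean of at least -5, 37 were higher and 21 lower, with a median of 0.10, which was 0.11 to 0.14 under the other scalings. Over all such genes on the array 6630 of 13716 were higher. Of 75 on the array, NKX6-2 and TLX3 were at least 2-fold higher (0.455% over all genes) and 0 lower (0.505%). TLX3, a factor of spinal cord neurons, gave -4.54 and -4.44 against -5.20 and -5.97, and was higher in MBD-TET1-CDwt at -3.31 and -1.76. HHEX gave -3.01 and -2.90 against -3.75 and -3.90 (log2 difference 0.87, standard error 0.27, unadjusted p = 0.0141). BARX1 gave -2.27 and -2.25 against -3.02 and -3.46. Of the HOX clusters, which lay down position along the body axis, 26 of 34 genes were higher, with a median of 0.17. This ranged from -0.20 to 0.63 over the 4 pairs of single clones, so it was within the spread between clones. HOXC12 was the 1 HOX gene at least 2-fold higher (-2.77 and -2.41 against -3.85 and -3.87, 2.41-fold higher), followed by HOXB5 (1.37 and 0.55 against -0.72 and 0.70, which overlapped) and HOXB8 (-0.81 and -1.15 against -2.16 and -1.49). Against MBD-TET1-CDwt within slide 2 both homeobox lists had a median of -0.21.

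The endogenous readers, writers, and silencers of methylated DNA were level. Of 23 methyl-CpG-binding proteins and NuRD subunits, 0 were 2-fold different, and 21 had differences from -0.24 in GATAD2B to 0.27 in UHRF2 with a median of -0.01. MBD5 gave -6.44 and -4.87 against -4.98 and -4.98, with #9 below background. Of 15 enzymes of DNA methylation and demethylation, 0 were 2-fold different, and the 14 brighter ones lay between -0.43 and 0.17 with a median of -0.09. The largest difference was in NEIL1, a glycosylase of base excision repair, at -0.28 and 0.20 against 0.08 and 0.69, which overlapped. Of 24 Polycomb and heterochromatin proteins, 0 were 2-fold different, the median was 0.00, and the lowest was CBX5 (HP1 alpha) at -0.34. In each of these 3 lists, limma had 0 genes at an unadjusted p under 0.05.

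Stress and interferon genes differed in single members. Of 20 heat shock chaperones, HSPA6 and HSPA2 were at least 2-fold higher (0.455% over all genes) and 0 lower (0.505%). Of the 20, 14 were higher, compared with 6630 of all 13716 genes with a mean of at least -5. The median of the list was 0.13, with 0.01 to 0.34 over the pairs of single clones. HSPA2, a testis-enriched HSP70 protein, gave -2.75 and -3.13 against -4.29 and -4.09 (2.38-fold, standard error 0.41, unadjusted p = 0.0199), and was higher still in MBD-TET1-CDwt at -2.05 and -0.92. HSPA1A gave -4.80 and -5.10 against -7.84 and -7.58, at least 1.95-fold higher, with 1.03 and -0.95 in MBD-TET1-CDwt, and its probe may bind the near-identical HSPA1B. HSPB1 gave 3.76 and 3.72 against 2.91 and 3.27 (1.57-fold, unadjusted p = 0.0535). Of 47 interferon genes, IRF7 and IFITM1 were at least 2-fold higher (0.455% over all genes) and 0 lower (0.505%), but the 27 brighter ones had a median of -0.02. IFITM1, an antiviral membrane protein, overlapped between the groups (0.28 and 0.75 against 0.36 and -1.36). IFIT2, an interferon-induced RNA-binding protein, ran in the other direction, at -7.38 and -6.39, not well above background, against -4.91 and -4.68 (at least 1.67-fold lower, unadjusted p = 0.00885), although its other probe differed by 0.40. OAS2, not well above background in MBD-TET1-CDmut, gave -6.56 and -5.66 against -5.29 and -5.48. 

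Of 26 genes of the unfolded protein and amino acid responses, 0 were 2-fold different and 19 were higher, compared with 6630 of all 13716 genes with a mean of at least -5. The median was 0.20, with 0.00 to 0.25 over the pairs of single clones. DNAJB9, a chaperone of the endoplasmic reticulum, gave 2.35 and 1.85 against 0.97 and 1.5 (unadjusted p = 0.174), and DDIT3, a factor of the stress response, 1.39 and 1.73 against 1.35 and 0.78. Against the same empty vector arrays the median was 0.24 in TET1-CDwt and -0.49 in MBD-TET1-CDwt, so it was not particular to MBD-TET1-CDmut. Within slide 2 the median of the list was 0.80, and MBD-TET1-CDwt #3 stood apart with -0.19 for DNAJB9 and -2.18 for DDIT3.

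**Figure D5:**
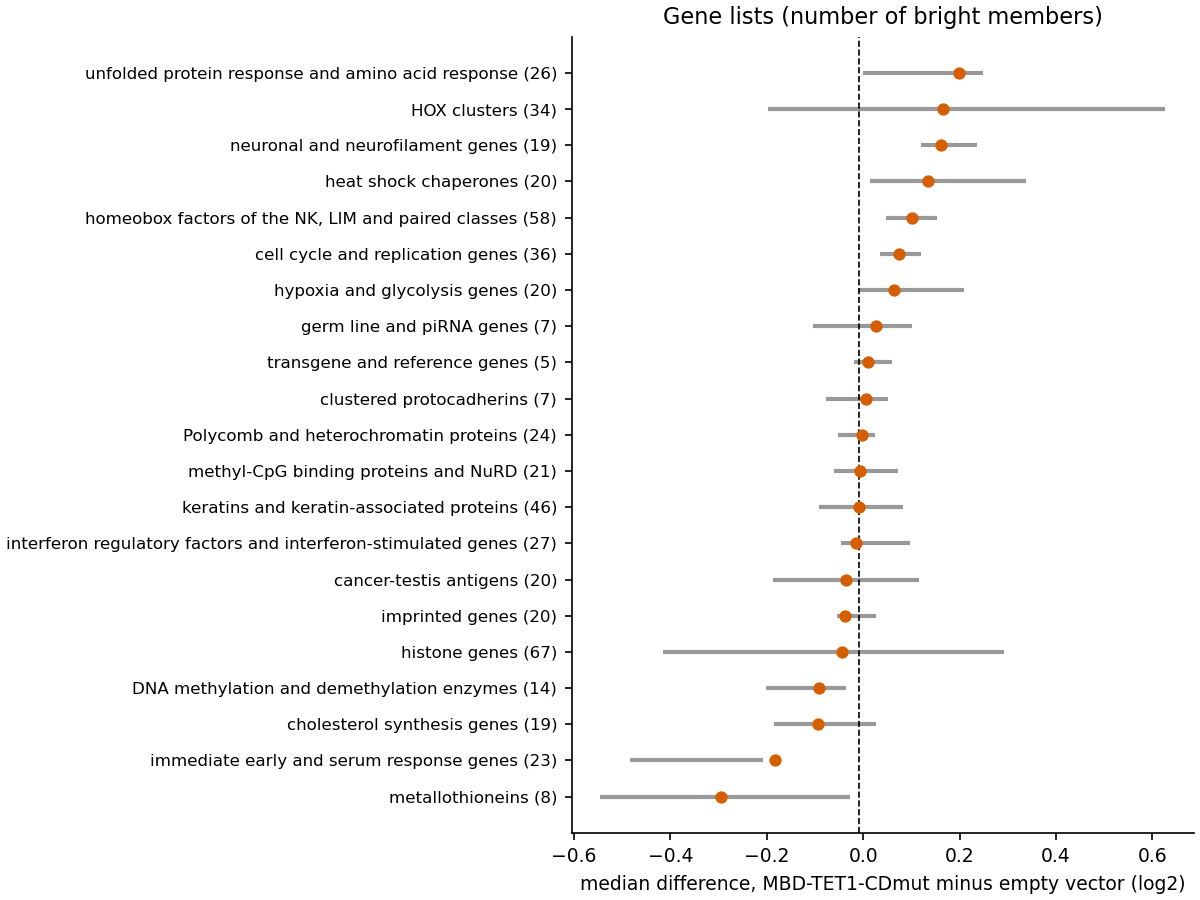
Median log2 difference between MBD-TET1-CDmut and empty vector (x axis) for each gene list, over members with a mean of at least -5 (number in parentheses). Points are medians of group means, gray lines run from the lowest to the highest median over the 4 pairs of single clones, a range that need not hold the point (immediate early genes), and the dashed line is the median of all 13716 such genes, -0.01. Metallothioneins at -0.30 and the unfolded protein response at 0.20 are the extremes.

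The remaining lists differed little. For comparison, 6630 of all 13716 genes with a mean of at least -5 were higher, and over all genes 0.455% were at least 2-fold higher and 0.505% lower. Metallothioneins, which bind zinc and copper, had the lowest median, -0.30, with 7 of 8 brighter members lower and 1 higher. MT1F gave 0.43 and 0.35 against 0.85 and 0.66, and MT1X 1.30 and 1.67 against 1.86 and 1.77. No member was 2-fold different, and the median was -0.55 to -0.03 over pairs of clones. Neuronal and neurofilament genes had a median of 0.16 (0.12 to 0.24 over pairs of clones), with 15 of 19 higher. VGF, a neuropeptide precursor, gave -0.11 and -0.68 against -1.31 and -0.92 (unadjusted p = 0.0636), and SCG3, a secretogranin, -3.99 and -4.44 against -4.68 and -4.97 (unadjusted p = 0.0264). Cell cycle and replication genes had a median of 0.07 with 24 of 36 higher, and AURKA, a mitotic kinase, gave 1.83 and 1.91 against 1.51 and 1.34. Hypoxia and glycolysis genes had a median of 0.06 and cholesterol synthesis genes -0.09, with 0 genes 2-fold different in both. In the hypoxia list ENO2 gave -1.26 and -1.79 against -1.87 and -2.28, and in the cholesterol list INSIG1 gave 2.12 and 2.58 against 2.96 and 2.86. Of 31 imprinted genes, 0 were 2-fold different. KCNQ1OT1, a long non-coding RNA, gave -3.13 and -2.67 against -2.92 and -0.88, and H19 gave -4.14 and -4.15 against -4.21 and -5.83, so that KCNQ1OT1 overlapped between the groups and H19 was close to 1 of the empty vector clones. Of 50 clustered protocadherins, 36 were dim on all 4 arrays and PCDHGC4 was at least 2-fold higher (-4.34 and -4.11 against -5.74 and -5.33), on 1 of 2 probes. Histone genes had a median of -0.04 that ran from -0.41 to 0.29 over pairs of clones, and H2BC6 was the 1 of 72 at least 2-fold lower (-5.50 and -5.34, not well above background, against -5.16 and -3.25).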

How the data were processed

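RNA of 8 stable clones was hybridized singly, as Cy3-labeled cRNA, to Agilent 4x44K arrays. The deposited files hold spot intensity per array as the authors' Feature Extraction software wrote it (version 9.5.1 in the submitters' processing notes and 10.7.3.1 in the file headers), and the processed signal was background-subtracted there. The study's normalization was not given in the sources used here. Outlier spots (213 to 269 an array) were left out, spots of a probe averaged, log2 taken, and the 75th percentile of each array subtracted. Of 34127 probes, 56 lacked a value on an array and were left out, and 25422 (74.5%) were named through RefSeq. Before a fold by size was taken, dim signals were raised to the lowest signal of the array that exceeded background, where they were below it. For limma (version 3.58.1 in R 4.3.3), probes that exceeded background in a whole group (2 arrays) were kept and 4 group means fitted to 8 arrays (4 residual degrees of freedom). The limma contrast of MBD-TET1-CDmut with empty vector was also run on simulated arrays. The counts by size and the gene lists were not tested in this way. The replicates are separately isolated clones. Genes are named where they were 5-fold different by size, where every clone was 2-fold past every other, where they had the smallest p, where they led a list, or where they belonged to the reference or RT-PCR panel. Members and lists were chosen with earlier results of these data known. A few gene-level results are not reported here.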

Additional observations from a re-analysis of the deposited data

Results flagged for a closer look

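Within slide 2, limma called 3 probes higher and 20 lower in MBD-TET1-CDmut than in MBD-TET1-CDwt at an adjusted p under 0.05 (0.0133% and 0.0888% of 22530), so the effects of these constructs against empty vector differ there. The log2 difference between the fusions was 2.22 for SLC44A5, -4.56 for GPAT2, -2.31 for OOEP, -4.85 for GTSF1, -5.22 for SOHLH2, and -8.04 for SOX17. Of the 20 lower probes, 19 were not well above background on either MBD-TET1-CDmut array, these 5 genes among them, so that the differences are not exact and have no order. With dim signals at the lowest signal above background, MBD-TET1-CDmut was at least 6.43-fold lower in GPAT2, 1.10-fold in OOEP, 7.58-fold in GTSF1, 7.52-fold in SOHLH2, and 58.0-fold in SOX17. Of the other probes called higher, MEIS3, a homeobox factor, was at 2.27 above MBD-TET1-CDwt and 0.17 above empty vector. For SLC44A5 and MEIS3 only 1 MBD-TET1-CDwt array was well above background. FBP1, also called higher, gave -5.36 and -5.39 against -7.48 and -7.63 in MBD-TET1-CDwt. It was well above background on no array of either fusion, so its difference is not exact.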

How the results depend on the processing

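No paired analysis was possible because the lines are separately isolated clones, and nothing links a clone of MBD-TET1-CDmut to one of empty vector. The 25 genes named for a 5-fold difference or for 2-fold between every clone kept their direction in 225 of 225 alternative values (genes named by other rules were not rerun). Since they were chosen from the same arrays for large differences, a change of direction could hardly occur, and this is no check of them. Of 176 alternative list medians, 151 lay within the spread over clone pairs. After normexp background correction, 14 genes were at least 2-fold higher and 12 lower, 0 at least 5-fold higher and 1 lower, and against MBD-TET1-CDwt 0 probes were called higher and 2 lower. With every clone past every other clone the counts were 24, 15, 2, and 0. Only genes well above background on all 4 arrays gave 5 genes 5-fold higher and 58 genes 2-fold lower. Without the floor for dim signals 170 genes were 2-fold lower and 6 were 5-fold lower, and with outlier spots kept 7 were 5-fold lower. limma on only the 4 arrays compared called 1 probe higher than empty vector. Between the fusions, 0 higher and 0 lower were called among probes well above background on all 8 arrays, 0 and 10 with an intensity trend, 1 and 4 with the arrays of slide 2 only, and 9 lower with no filter on dim probes. Leaving out 1 clone gave 167 to 292 genes 2-fold higher, 114 to 718 lower (718 without empty vector #1), 5 to 23 genes 5-fold higher, and 3 to 17 lower. In limma it gave 0 to 32 probes higher than empty vector (32 without #9 and 31 without #10) and 0 to 46 lower (34 without empty vector #1 and 46 without #2), 0 to 34 higher and 0 to 1 lower than the other 6 arrays, and, for a clone of either fusion, 14 to 129 higher and 9 to 168 lower than MBD-TET1-CDwt. Without 1 clone of the groups outside of that comparison, 0 to 1 were higher and 10 to 17 lower. A lone clone is then assumed to vary like the other groups. The cause of these changes was not tested, and the leave-one-out fits also hold fewer arrays. Signals near background limit all folds of dim genes.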

Other observations

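Small nuclear and nucleolar RNAs, which guide or take part in RNA processing, were often lower than in empty vector in MBD-TET1-CDmut and in TET1-CDwt, a group chosen after its values were seen. Of 20 such genes, of which 2 were well above background on none of the 4 arrays, 16 were lower in MBD-TET1-CDmut, and their median difference on the log2 scale was -0.31, compared with -0.01 over protein-coding genes with a mean of at least -5. Against the same empty vector arrays, 18 were lower in TET1-CDwt with a median of -0.30, and 10 in MBD-TET1-CDwt with a median of 0.02. The median of MBD-TET1-CDmut against MBD-TET1-CDwt on the same slide was -0.31. In 5 of the 20 both MBD-TET1-CDmut clones lay below all other 6 arrays, compared with 3.85% of all probes tested. RNU12, the U12 RNA of the minor spliceosome, gave -2.35 and -2.50 in MBD-TET1-CDmut against -0.96 and -1.39 in empty vector, and SNORA74A gave -4.49 and -4.74 against -2.91 and -3.72. limma called none of them after adjustment, and 5 were lower at an unadjusted p under 0.05, compared with 1.82% of all probes. Since the group was picked for its values, the shares over all probes are no fair measure of these counts. Of 358 long non-coding RNAs with a mean of at least -5, 234 were also lower in MBD-TET1-CDmut, with a median of -0.10.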
